A study of Homo sapiens with 3 samples.

Results

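The genes of human chromosome 3 that were well expressed in 3 libraries of a bile duct cancer cell line were examined by chromosome arm. Members were the genes listed on chromosome 3 whose FPKM status was OK and whose level was at least 3 FPKM (fragments per kilobase of transcript, scaled to library depth) in every library. This gave 569 members of 2983 genes listed on the chromosome, 268 of 1290 on the short arm and 301 of 1693 on the long arm, with the arms divided at 91 Mb on GRCh37. Over all chromosomes 9645 of 59013 listed genes passed the same filter.

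KKU-213 is an established human line of intrahepatic cholangiocarcinoma, which arises from bile ducts within the liver. Poly-A RNA libraries were made from L5, which is KKU-213L5 in medium with 25 mM glucose, from HG, which is KKU-213 in medium with 25 mM glucose, and from NG, which is KKU-213 in medium with 5.6 mM glucose. L5 cells are a subline of KKU-213 known for high metastatic ability. All 3 cultures were grown in DMEM with fetal bovine serum and antibiotics, and each is labelled as past 5 passages. Each group had 1 library, so no difference has a replicate check, no test across samples exists, and the spread between cultures is unknown. L5 differs from NG in both the cell population and the glucose concentration, and these cannot be told apart in that pair.

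Chromosome 3 is one of the chromosomes most often altered in human carcinomas. Its short arm carries several tumour suppressor genes, including VHL, BAP1, PBRM1, SETD2 and RASSF1, and losses there are well known in kidney, lung and bile duct cancers. Its long arm carries genes that are often gained in squamous carcinomas, among them PIK3CA, TP63, PRKCI and ECT2. The data here are RNA levels alone, and DNA content was not measured.

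Ratios are log2 ratios of FPKM + 1 between libraries, minus the median ratio of all 9645 genes, which puts the median of all genes at 0 in each pair. The values before centring had medians of -0.011 for L5 over HG, -0.091 for L5 over NG and -0.075 for HG over NG. Errors after ± are standard errors taken from the intervals deposited with each FPKM, and are called counting errors here. The rule that gathered these genes was proposed with these ratios in view, so arm medians and counts are descriptions. The 3 pairs share libraries: L5 is in 2 of them, as are HG and NG, so their values are given side by side and are not independent.

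Promoter windows are shown for 6 members that depart most from their arm or carry a described contrast: HES1, highest in L5, CLDN1, higher in L5 and HG than in NG, CLDN11 and TM4SF1, both far lower in L5 and HG than in NG, MANF, lowest in L5, and MYD88, which lies in the short arm stretch that was high in HG. Each is the RefSeq window from 250 bases before to 50 bases after the gene's start on GRCh38.p14, read along the gene's strand, and for CLDN11 it is the first of 2 windows listed. Capitals mark GTGGGAA, the letters bound by the Notch partner RBPJ, in HES1, the Sp1 letters GGGCGG in CLDN1, CLDN11 and MYD88, and CCAAT in TM4SF1 and MANF, on either strand.
HES1: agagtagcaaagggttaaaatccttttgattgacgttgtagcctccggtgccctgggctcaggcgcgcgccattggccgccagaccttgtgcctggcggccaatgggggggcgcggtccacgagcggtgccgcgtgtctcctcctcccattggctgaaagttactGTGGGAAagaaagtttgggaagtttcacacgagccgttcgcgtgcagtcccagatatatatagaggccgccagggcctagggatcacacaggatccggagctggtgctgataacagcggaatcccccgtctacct
CLDN1: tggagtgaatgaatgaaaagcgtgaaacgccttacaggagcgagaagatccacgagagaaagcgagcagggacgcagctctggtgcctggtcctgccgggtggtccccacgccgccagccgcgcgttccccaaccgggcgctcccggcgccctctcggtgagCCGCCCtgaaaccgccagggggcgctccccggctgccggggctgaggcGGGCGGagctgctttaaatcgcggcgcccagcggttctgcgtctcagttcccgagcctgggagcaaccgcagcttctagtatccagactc
CLDN11: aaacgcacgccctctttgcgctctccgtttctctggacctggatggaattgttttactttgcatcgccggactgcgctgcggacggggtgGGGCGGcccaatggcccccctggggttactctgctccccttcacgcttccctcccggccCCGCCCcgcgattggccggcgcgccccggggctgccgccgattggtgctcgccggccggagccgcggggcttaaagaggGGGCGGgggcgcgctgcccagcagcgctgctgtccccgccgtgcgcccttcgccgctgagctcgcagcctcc
TM4SF1: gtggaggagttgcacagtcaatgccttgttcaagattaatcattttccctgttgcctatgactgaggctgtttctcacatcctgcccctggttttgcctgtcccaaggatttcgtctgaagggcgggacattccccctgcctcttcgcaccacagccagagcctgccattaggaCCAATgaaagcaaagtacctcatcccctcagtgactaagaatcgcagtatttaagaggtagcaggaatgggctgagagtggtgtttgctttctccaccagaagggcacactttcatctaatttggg
MANF: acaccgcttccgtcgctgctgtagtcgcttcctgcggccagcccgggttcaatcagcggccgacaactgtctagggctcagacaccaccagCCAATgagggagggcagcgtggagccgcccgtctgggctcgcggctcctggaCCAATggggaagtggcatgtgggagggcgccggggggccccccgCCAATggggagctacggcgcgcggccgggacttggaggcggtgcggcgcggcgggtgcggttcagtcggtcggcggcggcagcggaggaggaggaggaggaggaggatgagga
MYD88: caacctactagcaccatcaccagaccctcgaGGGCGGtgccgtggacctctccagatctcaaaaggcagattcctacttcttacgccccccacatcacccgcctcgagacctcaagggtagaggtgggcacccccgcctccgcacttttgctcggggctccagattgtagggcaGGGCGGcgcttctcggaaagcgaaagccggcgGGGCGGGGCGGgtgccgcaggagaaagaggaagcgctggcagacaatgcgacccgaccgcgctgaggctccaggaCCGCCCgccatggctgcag

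The windows are chr3:194135898-194136197 (+) for HES1, chr3:190322397-190322696 (-) for CLDN1, chr3:170418618-170418917 (+) for CLDN11, chr3:149377600-149377899 (-) for TM4SF1, chr3:51385041-51385340 (+) for MANF and chr3:38138411-38138710 (+) for MYD88. The single GTGGGAA of HES1, a Notch target gene, began 85 bases before the start. CLDN1 held 2 copies of GGGCGG, CLDN11 held 3 and MYD88 held 5. TM4SF1 held 1 CCAAT and MANF held 3. RefSeq windows were found for 443 of the members' symbols, with 660 windows in all. Of these, 63.3% held GGGCGG, 35.3% held CCAAT and 4.55% held GTGGGAA on either strand, against 45.0%, 34.6% and 6.25% of all 35116 windows in the RefSeq table. The arms were alike in this respect, with GGGCGG in 65.1% of 315 short arm windows and 61.7% of 345 long arm windows. TATAAA was present in 7.73% of the members' windows and 11.5% of all windows, and TGANTCA, the AP-1 letters, in 4.39% and 7.71%. The members are expressed genes, whereas the RefSeq table also holds genes that did not pass the filter. Windows of passing genes on other chromosomes were not compared, so none of these differences is shown to be particular to chromosome 3. In MYD88 a pair of the GGGCGG copies share 1 base, and the capitals mark 1 motif a window even where others also occur. Letters in a window describe sequence and are not binding sites.

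In L5, most members on chromosome 3 stood below their level in HG after centring, and the median difference was small. The amount varied from gene to gene, with a standard deviation of 0.27 on the short arm and 0.30 on the long arm. Genes of other chromosomes had 0.31. The median ratio of L5 over HG was -0.39 on the short arm, a fold of 0.762, and -0.26 on the long arm, a fold of 0.834. On the short arm 245 of 268 members (91.4%) were below 0 and on the long arm 250 of 301 (83.1%). From the lower to the upper quartile, short arm members lay between -0.50 and -0.24 and long arm members between -0.38 and -0.094, with median counting errors of 0.060 and 0.053.

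L5 over NG gave a median of -0.43 on the short arm, a fold of 0.740, with 235 members (87.7%) below 0. On the long arm it was -0.30, a fold of 0.814, with 253 members (84.1%) below 0. The parent line alone showed little of this: HG over NG had medians of -0.065 on the short arm and -0.052 on the long arm, with 157 (58.6%) and 173 (57.5%) members below 0. L5 was the lowest of the 3 libraries for 470 of 569 members (82.6%), against 36.3% of the 9076 genes on other chromosomes. The long arm stood above the short arm by 0.13 in L5 over HG and 0.14 in L5 over NG, and by 0.013 in HG over NG.

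**Figure D1:**
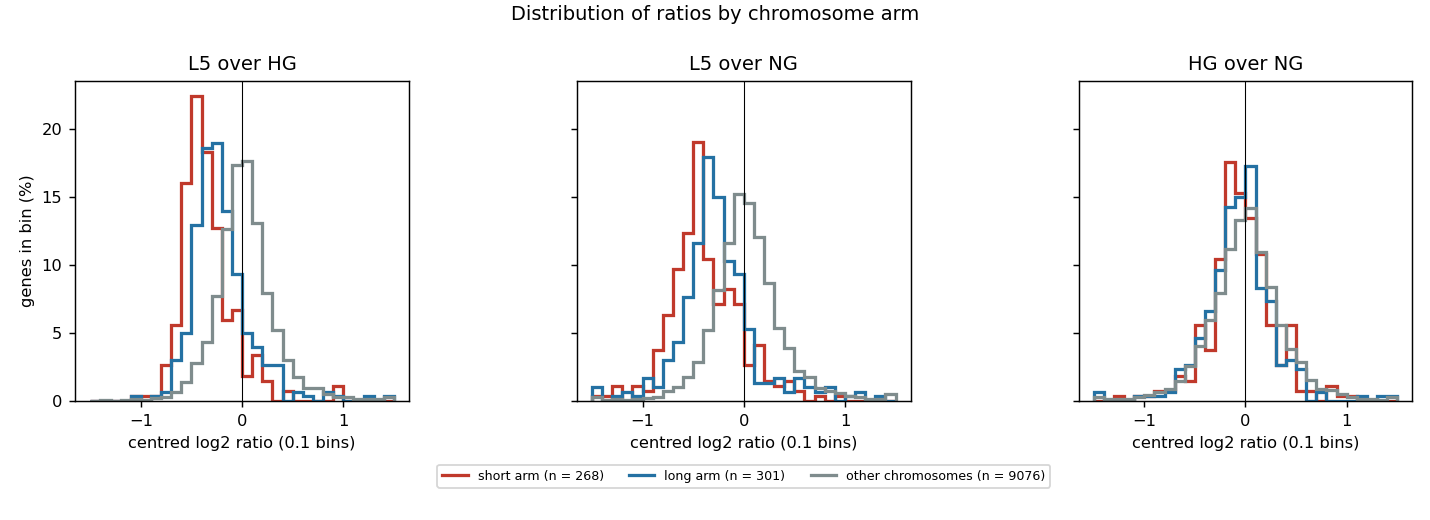
Share of genes (%) in bins of 0.1 of the centred log2 ratio for L5 over HG, L5 over NG and HG over NG, drawn for short arm members, long arm members and genes of other chromosomes, with values past 1.5 counted in the end bins. In both pairs with L5 the 2 arms lie left of the other chromosomes, with medians of -0.39 and -0.26 in L5 over HG, and in HG over NG the 3 outlines overlap.

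Counts past a fixed size also differed between the arms. Lower in L5 than in HG by at least 0.5 were 68 short arm members (25.4%) and 28 long arm members (9.30%), against 3.68% of all genes. Higher by as much were 3 short arm and 8 long arm members, against 5.19% of all genes. In L5 over NG, 96 short arm members (35.8%) and 60 long arm members (19.9%) were lower by at least 0.5, against 6.02% of all genes, while 4 and 17 were higher, against 7.43%. In HG over NG, 16 short arm and 22 long arm members were lower, against 7.06% of all genes, and 9 and 12 were higher, against 7.3%. Differences of 1 or more were few: 2 members lower in L5 than in HG (0.238% of all genes) and 2 higher (0.923%), 15 lower in L5 than in NG (0.788%) and 4 higher (1.36%), and 5 lower in HG than in NG (1.1%) and 4 higher (0.923%).

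The members' share of all FPKM was lowest in L5 on both arms. Short arm members made up 1.71% of the summed FPKM of all passing genes in L5, 2.27% in HG and 2.41% in NG. Long arm members made up 2.49% in L5, 2.91% in HG and 3.12% in NG. Each range of levels showed the lower median: short arm medians in L5 over HG were -0.37, -0.41 and -0.39 for 103, 94 and 71 members of low, middle and high mean FPKM, and the long arm medians were -0.23, -0.22 and -0.29. Genes with a mean of 1 to 3 FPKM, which are not members, had medians of -0.18 on the short arm (60 genes) and -0.012 on the long arm (79 genes), against 0.024 for 2639 such genes elsewhere. Below 0 were 68.3% of these short arm genes, 53.2% of the long arm genes and 46.7% of those elsewhere. Adding 1 to the FPKM compresses ratios most at those levels, and its part in these medians was not tested.

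Medians differed by gene type. The 250 protein-coding members of the short arm had a median of -0.40 in L5 over HG with 93.6% below 0, and the 275 of the long arm had -0.27 with 86.5% below 0. The 10 short arm pseudogenes and the 16 long arm pseudogenes had medians of 0.097 and 0.10. Pseudogenes share reads with parent genes on other chromosomes, so their values are uncertain. The 13 non-coding RNA members had medians of -0.42 on the short arm (5 genes) and -0.038 on the long arm (8 genes), and 5 members had no gene type in the annotation used.

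Among 23 chromosomes, chromosome 3 had the lowest median in L5 over NG, at -0.35, and the next to lowest in L5 over HG, at -0.31, where chromosome 6 was at -0.34. Chromosome 6 differed from it in the other pairs, at 0.067 in L5 over NG and 0.36 in HG over NG, where chromosome 3 was at -0.058. Chromosomes 9 and 15 stood on the other side, at 0.27 and 0.084 in L5 over HG and at 0.12 and 0.28 in L5 over NG. The 19 chromosomes other than 3, 6, 9 and 15 had medians between -0.035 and 0.065 in L5 over HG. In L5 over NG theirs lay between -0.047 and 0.067. No test of chromosome 3 against the rest is given, since it was singled out on these ratios.

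**Figure D2:**
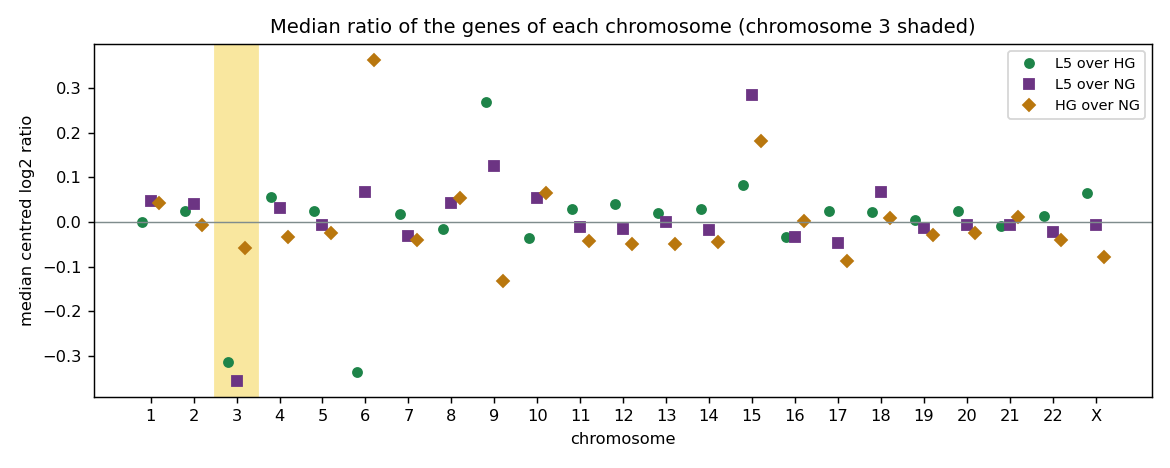
Median centred log2 ratio of the passing genes of each chromosome (x axis) for L5 over HG, L5 over NG and HG over NG, with chromosome 3 shaded. Chromosome 3 lies at -0.31 and -0.35 in the pairs with L5 and at -0.058 in HG over NG.

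Along the chromosome the lower level in L5 was spread over both arms, and no 10 Mb segment had a median above 0 in L5 over HG or L5 over NG. Of 13 segments of 10 Mb with at least 20 members, the medians of L5 over HG ran between -0.42 and -0.14, and those of L5 over NG between -0.48 and -0.15. Elsewhere in the genome 14 of 182 such segments were at or below -0.14 in L5 over HG, and 1 of 182 was at or below -0.15 in L5 over NG. The lowest segment elsewhere was at -0.41 in L5 over HG and at -0.20 in L5 over NG. Among these 13, the segment from 160 to 170 Mb was the highest in L5 over HG and the segment from 30 to 40 Mb the highest in L5 over NG. The thinly filled segments from 70 to 80 and 80 to 90 Mb, with 8 and 6 members, were higher in L5 over NG, at -0.076 and -0.093. The single position that best divided the members by level lay at 69.1 Mb in L5 over HG, between TMF1 and UBA3, with a median of -0.40 for 250 members before it and -0.26 for 319 after it, but it removed only 6.05% of the deviation among members. In L5 over NG it lay at 68.2 Mb, between SUCLG2 and the pseudogene PSMC1P1, with -0.45 and -0.29, and removed 3.37%. Both positions are inside the short arm, but only 16, 8 and 6 members lay in the segments from 60 to 70, 70 to 80 and 80 to 90 Mb, so the arm end is poorly resolved. In HG over NG the position at 39.4 Mb divided medians of 0.0041 and -0.071 and removed 0.597%.

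Runs of neighbouring members below 0 were long in the pairs with L5. Most members of chromosome 3 were below 0 there, 87.0% in L5 over HG and 85.8% in L5 over NG. The runs are therefore not independent of that lower level and are no separate support for it. In L5 over HG, 51 consecutive members between NME6 and RRP9 (chr3:48334754-51975957) were all below 0 with a median of -0.38, and 33 more between ACY1 and SLMAP (chr3:52017356-57914895) with a median of -0.46. Long runs below 0 also stood elsewhere in that pair, the longest with 45 genes on chromosome 6 and 31 on chromosome 1. In L5 over NG, 63 consecutive long arm members between SLC12A8 and RNF7 (chr3:124801480-141466402) were all below 0 with a median of -0.31, whereas the longest such run on any other chromosome held 12 genes.

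One stretch of the short arm went the other way in HG over NG. The 16 consecutive members between PDCD6IP and SLC25A38 (chr3:33839844-39438842) were all above 0, with a median of 0.43, a range of 0.045 to 1.01 and 6 members at 0.5 or more, while the other 252 short arm members had a median of -0.081. The stretch was picked as the chromosome's longest run above 0 in that pair, so its direction there was set by the choice. Each of the other pairs shares a library with HG over NG. In L5 over HG the same 16 had a median of -0.34, close to the -0.39 of the others. In L5 over NG they had 0.22, against -0.46 for the others and -0.49 for the 10 members on either side. Runs of 45 genes above 0 were seen on chromosome 6 in HG over NG and of 33 on chromosome 1.

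LRRFIP2, a cytoskeletal and Toll-like receptor signalling protein, was at 26.4 FPKM in L5, 37.3 in HG and 19.1 in NG, and its ratio was 1.01 ± 0.081 in HG over NG. OXSR1, a stress-responsive kinase that controls chloride transporters, had 17.6, 25.9 and 14.3 FPKM in L5, HG and NG. GOLGA4, a tether of the trans-Golgi network, had 25.96, 34.9 and 19.7 FPKM, and WDR48, a partner of ubiquitin proteases, had 13.3, 18.7 and 10.4 FPKM. These 4 genes were highest in HG, intermediate in L5 and lowest in NG. CTDSPL, a phosphatase, had 21.3, 34.1 and 22.2 FPKM and ACAA1, a peroxisomal thiolase, had 16.7, 20.6 and 15.1 FPKM. MYD88, the adaptor of Toll-like and interleukin-1 receptors, was highest in L5, with 8.53, 7.96 and 5.94 FPKM. The locus of LRRFIP2 overlaps that of its neighbour, and the strand setting used to count these overlapping genes is not given in the sources used here.

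**Figure D3:**
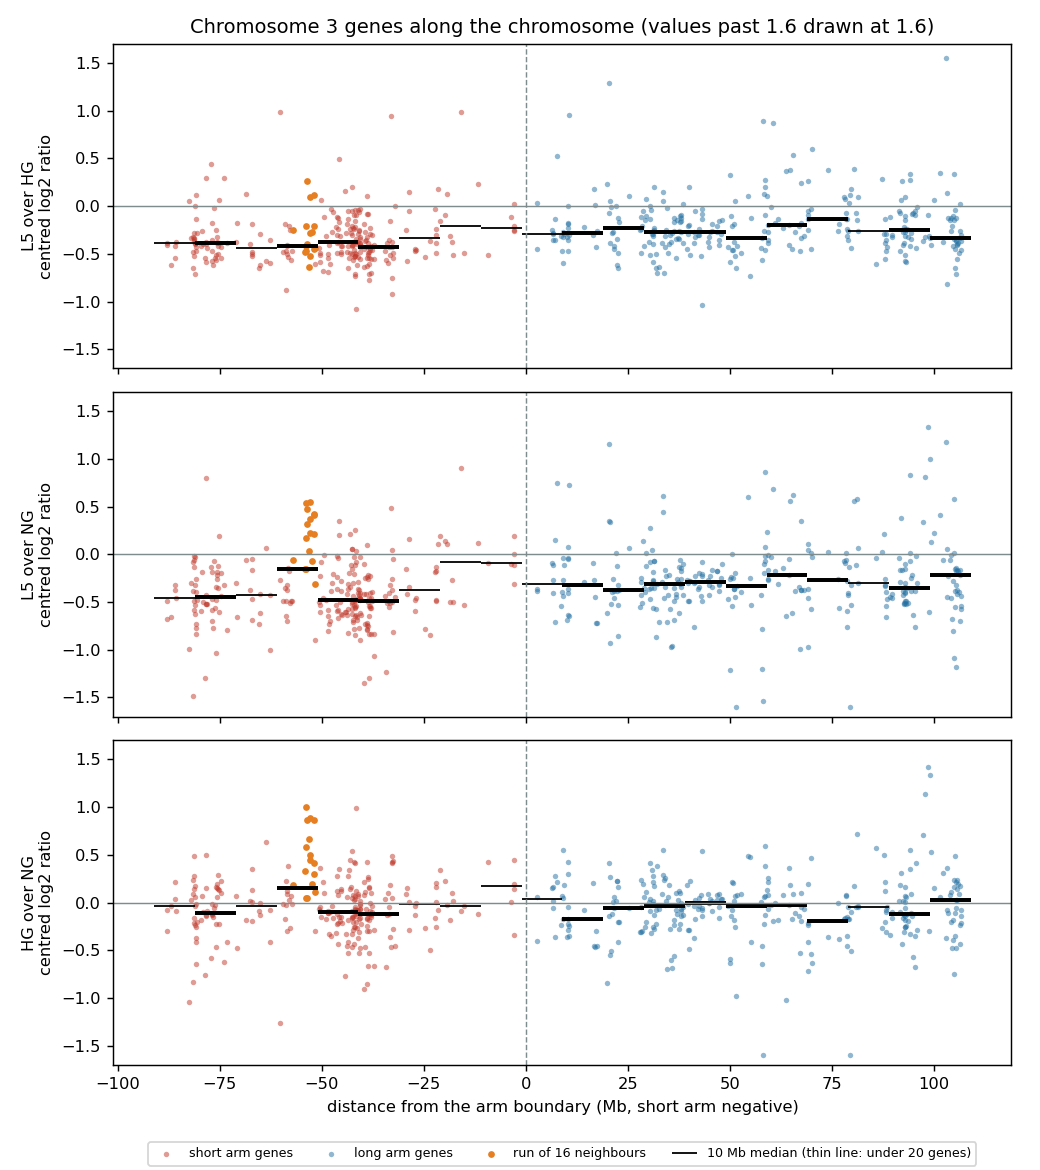
Centred log2 ratio of each member (points) against its distance from the arm boundary in Mb, for L5 over HG, L5 over NG and HG over NG from top to bottom, with black lines at the median of each 10 Mb segment. The medians of full segments lie between -0.42 and -0.14 in L5 over HG. The 16 orange genes stand up with a median of 0.43 in HG over NG, the pair on which they were picked.

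The gene lists described next were chosen with earlier results of these data known, and their counts are to be read against the chromosome 3 members as a whole. Of those, 87.0% were below 0 in L5 over HG and 16.9% were lower by at least 0.5, against 3.68% of all genes. Higher by as much were 1.93% of the members, against 5.19% of all genes. In HG over NG 6.68% of the members were lower and 3.69% higher, against 7.06% and 7.3% of all genes. Of 30 listed short arm genes of tumour suppressor regions, 20 were members. In L5 over HG 18 of these were below 0, with a median of -0.42, 5 lower by at least 0.5 and 1 higher, close to the 91.4% below 0 and 25.4% lower by 0.5 among all short arm members. VHL, the ubiquitin ligase subunit that removes hypoxia-inducible factors, was at 27.3 FPKM in L5, 37.5 in HG and 52.9 in NG. BAP1, a histone deubiquitinase, was at 25.2, 36.1 and 31.5 FPKM, and PBRM1, a chromatin remodelling subunit, at 12.5, 19.7 and 18.6 FPKM. SETD2, which trimethylates histone H3, was at 9.42, 13.7 and 13.8 FPKM. All 4 were lowest in L5, with ratios of L5 over HG of -0.43, -0.49, -0.61 and -0.48.

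RASSF1, a Hippo pathway scaffold, was at 6.82 FPKM in L5, 9.59 in HG and 14.5 in NG. CTNNB1, the beta-catenin of adherens junctions and Wnt signalling, was at 117 FPKM in L5, 190 in HG and 172 in NG, with -0.68 for L5 over HG. The 2 list members above 0 in L5 over HG were TGFBR2, described below, and ROBO1, a Slit receptor, at 7.09, 5.93 and 6.91 FPKM.

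Of 37 listed genes from the distal long arm that is often gained in carcinomas, 31 were members, 28 of them below 0 in L5 over HG with a median of -0.27, 1 lower by at least 0.5 and none higher. PIK3CA, the catalytic subunit of phosphoinositide 3-kinase, was at 9.73, 10.9 and 13.4 FPKM in L5, HG and NG. ECT2, a guanine nucleotide exchange factor of cytokinesis, was at 78.8, 95.1 and 104 FPKM. ACTL6A, an actin-related subunit of chromatin remodellers, was at 99.8, 129 and 168 FPKM. These 3 genes were lowest in L5 and highest in NG. TBL1XR1, a subunit of the nuclear receptor corepressor, was at 49.4, 76.5 and 54.0 FPKM, a ratio of -0.61 in L5 over HG. TFRC and RFC4 of this list, and EIF4A2 of the translation list, are not members because their status was not OK in at least 1 library, and no ratio is given for them.

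Of 20 members for ribosomal proteins and translation, 10 on each arm, 19 were below 0 in L5 over HG, with a median of -0.41 and 5 lower by at least 0.5. The most abundant short arm members were the ribosomal protein genes RPL32, RPL14, RPSA, RPL15 and RPL29. RPL32 was at 908, 1241 and 1391 FPKM in L5, HG and NG, RPSA at 655, 1006 and 1304 FPKM, and RPL29 at 536, 837 and 993 FPKM. Each was lowest in L5 and highest in NG. On the long arm RPL24 was at 1305, 1685 and 2160 FPKM and RPL35A at 1265, 1641 and 2002 FPKM. RPL22L1, a paralogue of RPL22, was the exception, at 469, 417 and 624 FPKM, a ratio of 0.18 in L5 over HG. CNBP, a nucleic acid binding protein, was at 401, 452 and 444 FPKM. Ribosomal protein genes have many processed copies, which can take up reads. The most abundant long arm members included 1 pseudogene, RP11-3P17.3, at 382, 253 and 414 FPKM.

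All 26 genes of the mitochondrial list were members and all 26 were below 0 in L5 over HG, with a median of -0.41 and 7 lower by at least 0.5. The list includes ACAA1, the peroxisomal thiolase named above, at -0.28. Of the 26, 12 are on the short arm, where 25.4% of members were lower by that much, and 14 on the long arm, where 9.30% were. NDUFAF3, an assembly factor of respiratory complex I, was at 13.5 FPKM in L5, 22.9 in HG and 23.1 in NG, with -0.72 for L5 over HG. PDHB, a subunit of pyruvate dehydrogenase, was at 45.7, 67.6 and 86.7 FPKM. MRPL3, a mitochondrial ribosomal protein, was at 153, 220 and 199 FPKM, and OPA1, which fuses inner membranes, at 78.9, 104 and 87.7 FPKM. Their ratios of L5 over HG were -0.54, -0.51 and -0.38. In HG over NG 16 of the 26 were below 0, with a median of -0.090 and 1 lower by at least 0.5, CHCHD6 of the inner membrane organising complex, at -0.60.

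Members for ubiquitin, proteasome and autophagy were below 0 in L5 over HG for 24 of 24, with a median of -0.40. PSMD2, a subunit of the proteasome's regulatory particle, was at 218, 264 and 307 FPKM in L5, HG and NG. UBE2E1, a ubiquitin-conjugating enzyme, was at 117, 167 and 201 FPKM, and VPRBP, a substrate receptor of a cullin ligase, at 13.7, 21.97 and 19.9 FPKM. VPRBP and UBE2E1 were the 2 members lower by at least 0.5 in L5 over HG. Members for DNA replication, repair and cell division were below 0 for 23 of 23, with a median of -0.33. TOP2B, a topoisomerase, was at 28.9, 46.1 and 51.7 FPKM, ATR, the replication stress kinase, at 14.5, 21.5 and 21.6 FPKM, and HLTF, a helicase-like factor of fork repair, at 22.1, 33.5 and 55.6 FPKM.

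Members of the endoplasmic reticulum and Golgi list were below 0 in L5 over HG for 25 of 26, with a median of -0.32. MANF, a factor secreted under endoplasmic reticulum stress, was at 58.3 FPKM in L5, 80.5 in HG and 160 in NG, with ratios of -0.45 ± 0.061 in L5 over HG, -1.35 ± 0.059 in L5 over NG and -0.91 ± 0.056 in HG over NG. DNAJB11, a co-chaperone of the same compartment, was at 149, 160 and 270 FPKM, with ratios of -0.094, -0.77 and -0.68 in L5 over HG, L5 over NG and HG over NG. Both were highest in NG, and DNAJB11 differed little between L5 and HG. The B3GNT5 glycosyltransferase was the 1 member above 0, at 29.6, 28.5 and 24.0 FPKM.

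Metabolic members were below 0 in L5 over HG for 14 of 16, with a median of -0.37. PPARG, the nuclear receptor of adipocyte differentiation, had 4.88 FPKM in L5, 7.63 in HG and 14.4 in NG, with ratios of -0.54 ± 0.093, -1.30 ± 0.091 and -0.76 ± 0.080 in L5 over HG, L5 over NG and HG over NG. GBE1, the glycogen branching enzyme, was at 32.9, 47.8 and 37.4 FPKM, and GPX1, a glutathione peroxidase, at 78.9, 113 and 131 FPKM. PLD1, a phospholipase, was 1 of 2 above 0, at 5.19, 3.78 and 3.47 FPKM.

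**Figure D4:**
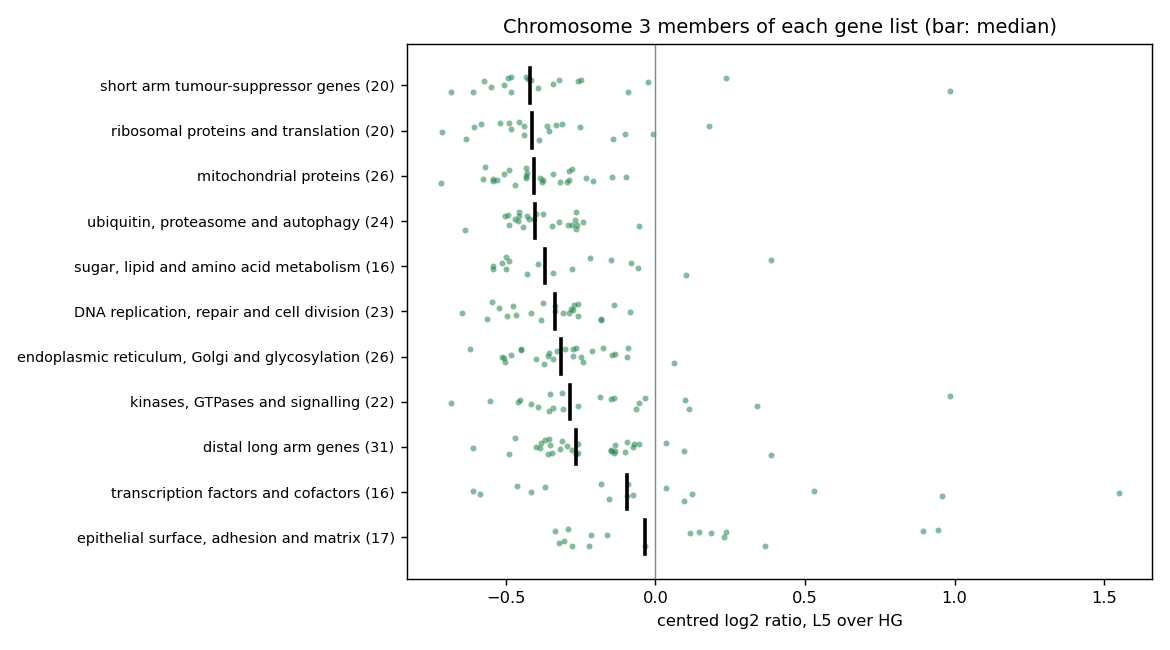
Centred log2 ratio of L5 over HG for the chromosome 3 members of 11 gene lists, with 1 point per gene, the number of members in brackets and a black bar at the list's median. The points of the mitochondrial list, which includes the peroxisomal ACAA1, and of the ubiquitin and DNA repair lists all lie below 0. Points past 0.5 on the positive side occur in the transcription factor, epithelial surface, signalling and short arm tumour-suppressor lists.

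Signalling members, 12 on the short arm and 10 on the long arm, had a median of -0.28 in L5 over HG with 18 of 22 below 0. RHOA, a GTPase of the actin cytoskeleton, was at 192, 245 and 297 FPKM in L5, HG and NG. PRKCD, a protein kinase C, was at 8.20, 12.6 and 12.4 FPKM. Transcription factors, 12 of 16 on the long arm, had a median of -0.093 with 10 of 16 below 0, 3 higher and 2 lower by at least 0.5. Epithelial surface, adhesion and matrix genes, 11 of 17 on the long arm, had a median of -0.035 with 9 of 17 below 0, 2 higher and none lower by at least 0.5. Over all genes, 5.19% were higher and 3.68% lower by at least 0.5 in that pair. In HG over NG the surface list had a median of -0.33, with 5 of 17 members lower by at least 0.5 and 2 higher, against 7.06% and 7.3% of all genes.

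HES1, a Notch-induced repressor (chr3:193853934-193856521), had 50.3 FPKM in L5, 16.7 in HG and 23.1 in NG. It was higher in L5 than in both parent cultures, with ratios of 1.55 ± 0.056 in L5 over HG and 1.18 ± 0.056 in L5 over NG, and -0.37 ± 0.064 in HG over NG. ZBED2, a zinc finger repressor (chr3:111311747-111314290), had 13.4, 4.92 and 5.88 FPKM, with 1.29 ± 0.071 and 1.16 ± 0.079 in the 2 pairs with L5. NFKBIZ, an inducible regulator of NF-kB target genes (chr3:101546835-101579866), had 22.1, 10.98 and 13.9 FPKM, with 0.96 ± 0.053 and 0.72 ± 0.060. TIPARP, a mono-ADP-ribosyltransferase induced by the aryl hydrocarbon receptor, had 32.1, 22.1 and 21.8 FPKM. All 4 are long arm genes that were highest in L5. ZBTB38, a methyl-CpG binding repressor, was lowest in L5, with 16.2, 25.1 and 41.6 FPKM and -1.22 ± 0.064 in L5 over NG.

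On the short arm, TGFBR2, the type II TGF-beta receptor (chr3:30647994-30735634), had 35.2 FPKM in L5, 17.4 in HG and 45.5 in NG, with 0.99 ± 0.028 in L5 over HG and -1.26 ± 0.029 in HG over NG. It was lowest in HG. DAG1, which encodes dystroglycan, a laminin receptor (chr3:49506146-49573048), was highest in HG, with 23.6, 51.3 and 26.8 FPKM, -1.07 ± 0.040 in L5 over HG and 0.99 ± 0.044 in HG over NG. TMEM40, a membrane protein gene, was highest in L5, with 62.6, 51.2 and 37.98 FPKM. The pseudogene RP11-642N14.1 had the highest short arm ratio of L5 over HG, at 0.99 ± 0.18, and is uncertain for the reason given above. With summed isoform FPKM that ratio was 0.041. SETD5-AS1, an antisense RNA, was at 19.8, 32.0 and 61.1 FPKM and cannot be told apart from its partner SETD5 where they overlap, as the counting strand is not given.

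Other short arm genes picked by the size of their distance from the arm median were CMTM8, a chemokine-like membrane protein, at 3.51, 7.37 and 6.53 FPKM in L5, HG and NG, and SMIM4, a small mitochondrial membrane protein, at 5.66, 10.5 and 16.5 FPKM. Both were lowest in L5, with -0.88 ± 0.098 and -0.78 ± 0.25 in L5 over HG. RPP14 appears under 2 gene identifiers at nearly the same locus, at 6.78, 13.8 and 10.7 FPKM and at 7.03, 9.86 and 10.1 FPKM, so its values are uncertain. WNT7A, a Wnt ligand, was above HG in L5, at 8.49, 6.04 and 10.1 FPKM. LMCD1, a LIM domain protein, was at 3.39, 3.27 and 8.29 FPKM, and ABHD14B, a hydrolase, at 4.80, 4.42 and 9.31 FPKM, both highest in NG.

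On the long arm the genes furthest below the arm median in L5 over HG, among those whose deposited intervals did not overlap, were ATP13A3, a polyamine transporter, at 57.7, 103 and 84.5 FPKM, PLOD2, a collagen lysyl hydroxylase, at 23.6, 40.3 and 30.1 FPKM, PTPLB, an enzyme of very long chain fatty acid synthesis, at 36.6, 60.6 and 48.7 FPKM, and SLC12A8, a solute carrier, at 3.64, 6.59 and 5.79 FPKM. Their ratios of L5 over HG were -0.82 ± 0.029, -0.73 ± 0.028, -0.70 ± 0.033 and -0.70 ± 0.12, and all 4 were highest in HG. The pseudogene RPL39P5, named here after its values were seen, was lower still, at 7.95, 17.5 and 12.4 FPKM, but its ratio of -1.03 ± 0.73 in L5 over HG rests on overlapping intervals.

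The 2 members with the largest differences between the parent cultures were surface genes of the long arm. CLDN11, a tight junction claudin (chr3:170136653-170578169), had 10.8 FPKM in L5, 9.92 in HG and 83.5 in NG, with -2.75 ± 0.050 in L5 over NG and -2.88 ± 0.054 in HG over NG. TM4SF1, a tetraspanin-like protein of carcinoma cells (chr3:149086809-149095652), had 110, 59.4 and 344 FPKM, with 0.89 ± 0.034, -1.54 ± 0.025 and -2.44 ± 0.029 in L5 over HG, L5 over NG and HG over NG. Both were highest in NG, and TM4SF1 was intermediate in L5. MME, the neprilysin peptidase, had 17.4, 13.4 and 29.7 FPKM, and PCOLCE2, an enhancer of procollagen processing, had 3.92, 6.77 and 15.1 FPKM.

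TP63, the p63 transcription factor of basal and squamous epithelia (chr3:189349205-189615068), ran the other way, with 73.6 FPKM in L5, 79.3 in HG and 30.6 in NG. Its ratios were -0.095 ± 0.019 in L5 over HG, 1.33 ± 0.031 in L5 over NG and 1.42 ± 0.030 in HG over NG. CLDN1, a claudin of epithelial barriers (chr3:190023490-190040264), had 136, 173 and 71.9 FPKM, with 1.00 ± 0.024 and 1.33 ± 0.023 over NG in L5 and HG. TPRG1, a gene next to TP63, had 8.20, 10.6 and 4.58 FPKM, and TNFSF10, the death ligand TRAIL, had 5.08, 5.80 and 3.34 FPKM. All 4 were higher in both cultures at 25 mM glucose than in NG.

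**Figure D5:**
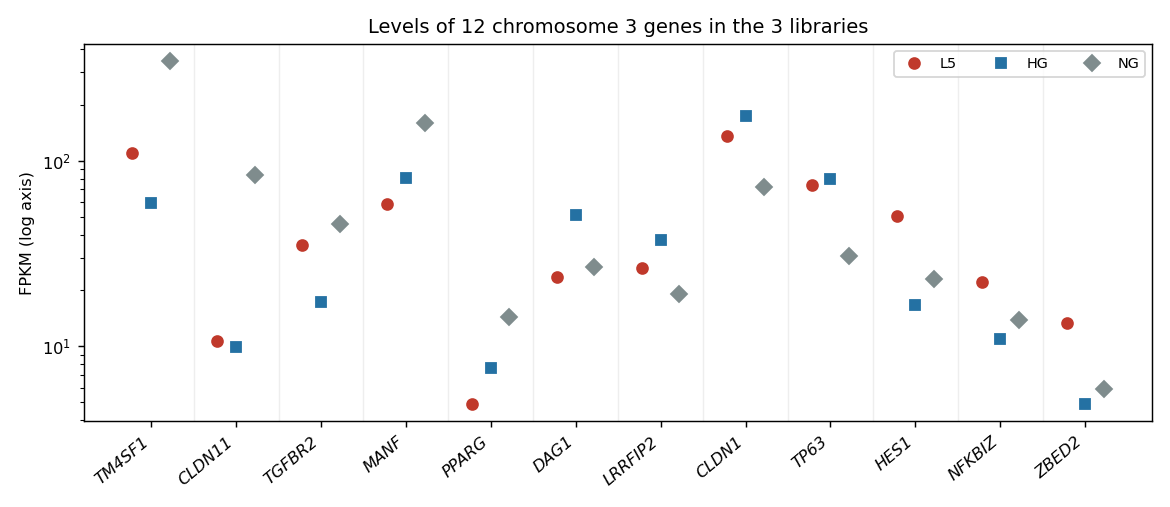
FPKM on a log axis of 12 members in L5, HG and NG, with 1 library per point. HES1, NFKBIZ and ZBED2 are highest in L5, TM4SF1, CLDN11, TGFBR2, MANF and PPARG in NG, and DAG1, LRRFIP2, CLDN1 and TP63 in HG.

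Isoform shares were compared for 314 members at 10 FPKM or more whose isoforms summed to at least 90% of the gene's FPKM. An isoform's share of the gene's summed FPKM differed by 20 points or more for 3 genes in HG over NG, for 1 gene in L5 over HG and for 0 genes in L5 over NG. No such share over all genes is given, so these counts describe the 314 members alone. The largest was in GNAI2, an inhibitory G protein subunit, where ENST00000266027 made up 17.4% in L5, 42.8% in HG and 14.2% in NG. In TP63 the transcript ENST00000354600, which begins downstream of the first listed promoter, held 89.1% of isoform FPKM in L5, 88.2% in HG and 83.4% in NG, at 65.6, 69.9 and 25.5 FPKM. ENST00000264731, which begins at the upstream promoter, held 0.848%, 1.43% and 4.80%.

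Of the listed chromosome 3 genes that are not members, 38 had a status other than OK in a library, 1344 were listed at 0 FPKM in every library, 954 were above 0 and under 3 FPKM in every library, and 78 reached 3 FPKM in 1 or 2 libraries. The members nearest the limit were EAF2, C3orf67 and OGG1, at 3.03, 3.07 and 3.20 FPKM in their lowest library, and the nearest genes outside it were NUP210, HRH1 and ISY1-RAB43, at 2.997, 2.99 and 2.98 FPKM. All 6 were lowest in L5, as were 82.6% of all members. A minimum in every library leaves out genes that are low in 1 library, and a limit on the mean was therefore tried as an alternative. A list of 13 liver genes of chromosome 3, of plasma proteins, enzymes and others, held no member. Of all genes listed on the chromosome, 569 of 2983 were members.

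Library depth was about 68.7 M fragments in L5, 76.0 M in HG and 47.1 M in NG, estimated from the coverage columns. Of 13 cholangiocyte markers, 7 reached 1 FPKM in each library. KRT7 was at 789 FPKM in L5, 784 in HG and 992 in NG, while CFTR and AQP1 were under 0.1 FPKM. Few markers of other cell types reached 1 FPKM. Hepatocyte markers did so for 1 of 10 in L5 and HG and 2 in NG (SERPINA1 highest, CPS1 also in NG). Fibroblast markers did so for 1 of 9 (ACTA2) in each library. Leukocyte and endothelial markers did so for 2 of 9 in L5 and HG (CD68 and CD14) and 1 in NG. SERPINA1 was at 36.5, 27.8 and 77.8 FPKM in L5, HG and NG, and CD68 at 16.1, 13.2 and 12.5 FPKM. The summed FPKM in L5, HG and NG was 2698, 2400 and 2495 for the cholangiocyte list and 36.7, 28.2 and 80.0 for the hepatocyte list. It was 3.20, 3.58 and 8.33 for the fibroblast list and 18.2, 16.6 and 13.9 for the leukocyte and endothelial list. ALB, APOB and COL1A2 were at or near 0. The part of other cells in the chromosome 3 ratios was not tested.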

How the data were processed

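Poly-A RNA of 3 cultures was sequenced as strand-specific paired reads of 100 bases, 1 library per group. The submitters' processing notes name BWA, TopHat and Cufflinks, without versions, and the build GRCh37. The deposited FPKM values per gene and isoform are used as the authors made them, with the deposited interval bounds and coverage (signal columns) beside each. The strand setting of the counting is not given in the sources used here. Members and gene lists were chosen with earlier results of these data known.

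From these values the log2 ratio of FPKM + 1 was taken per pair of libraries and centred on the median of the 9645 genes with OK status and at least 3 FPKM in every library. Rows with a repeated identifier were kept apart by locus, and 92 spike-in rows were left out. The counting error is the width of the deposited interval divided by 4, relative to its midpoint, and a member's FPKM lay inside its own interval for 84.0% in L5, 80.5% in HG and 82.6% in NG. The deposited intervals describe each library alone and do not cover the spread between cultures. No test across samples was possible with 1 library a group. Depth was estimated as coverage over FPKM at 200 bases per fragment. Named genes were, per arm and pair, the 4 highest and 4 lowest relative to the arm median with separate intervals, list members past 0.5 and up to 4 others of high level, the 5 most abundant per arm, and 3 genes on each side of the limit; of those, examples are printed, and some are not reported here. Gene types came from GENCODE by Ensembl identifier and promoter windows from RefSeq on GRCh38.p14, whose coordinates were not mixed with the files' GRCh37. The code was tested on simulated data. The software was matplotlib 3.10.9, numpy 2.4.6, pandas 2.3.3 and scipy 1.17.1 under Python 3.11.15.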

Additional observations from a re-analysis of the deposited data

How the results depend on the processing

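No paired analysis was possible because each group had 1 library. Of 336 values for arms, counts and the arm difference under other settings, 306 stayed inside the interval of the reported value and 30 moved outside it. For arm medians this was a binomial interval of the median over genes, combined over both arms for their difference. For shares it was a Wilson interval over members. Both take genes as the units, so they measure neither counting error nor the spread between cultures. The arm difference in HG over NG, 0.013 as reported, changed sign within its interval, to -0.0031 with a pseudocount of 5 and -0.023 with the trend on length and level removed. Over all settings the short arm median stayed between -0.43 and -0.11 in L5 over HG and between -0.52 and -0.14 in L5 over NG, and the long arm median between -0.27 and -0.039 and between -0.39 and -0.077. Without centring, the long and short arm medians were -0.39 and -0.52 in L5 over NG and -0.13 and -0.14 in HG over NG, and the shares of members lower by 0.5 were 41.5% and 10.4%. Without the limit on FPKM, the short and long arm medians and their difference were -0.11, -0.039 and 0.072 in L5 over HG and -0.14, -0.077 and 0.068 in L5 over NG, the long arm median was -0.022 in HG over NG, 8.56% were lower by 0.5 in L5 over HG, and 2.12% were higher and 21.2% lower in L5 over NG; here most added genes are near 0 FPKM. With a pseudocount of 0.1 the short arm median was -0.43 in L5 over HG, and 21.6% and 32.9% were lower by 0.5 in L5 over HG and L5 over NG. With a pseudocount of 5 the short and long arm medians and their difference were -0.30, -0.21 and 0.097 in L5 over HG and -0.33, -0.26 and 0.066 in L5 over NG, 6.15% were lower by 0.5 and 0 by 1 in L5 over HG, 2.28% were higher and 17.6% lower in L5 over NG, and 2.11% were higher in HG over NG. The cause of the other moves was not tested. Named genes had 650 values under other settings. Of these, 596 stayed inside an interval set by the counting error, 53 moved outside it and 1 reversed. Of 48 values of named genes, 47 kept 1 sign. The pseudogene RP11-642N14.1 was at -0.040 in L5 over NG and 0.041 in L5 over HG with summed isoform FPKM.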

Other observations

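Several chromosome 3 genes reached 3 FPKM in 1 or 2 libraries and are not members, so they entered none of the counts. SEMA3B, a secreted semaphorin of the short arm, was at 0.766 FPKM in L5, 4.64 in HG and 0.829 in NG. COL8A1, a collagen chain, was at 0.267, 0.126 and 4.48 FPKM, and FSTL1, a secreted glycoprotein, at 0.416, 1.91 and 4.34 FPKM. BCHE, the butyrylcholinesterase, was at 2.12, 2.06 and 7.21 FPKM. COL8A1, FSTL1 and BCHE were highest in NG. MYLK, the myosin light chain kinase, was at 3.91, 5.64 and 1.90 FPKM, PFKFB4, a regulator of glycolysis, at 2.72, 3.59 and 1.51 FPKM, and BCL6, a repressor, at 3.32, 4.77 and 2.58 FPKM. These 3 were highest in HG and lowest in NG. They were picked after their values were seen.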
